A study of Drosophila melanogaster with 12 samples.

Results

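The response of control male flies to 24 hr without food was followed in whole bodies, across all 13554 genes measured on the arrays. Control flies were w1118, a laboratory stock of Drosophila melanogaster with a mutation in the eye colour gene white. Every male was 5 days old and had spent 4 days on regular food. Starved flies were then kept for 24 hr in vials that held only moist filter paper, so that water but no nutrient was at hand, and fed flies stayed on food. One sample was total RNA from the whole bodies of 10 pooled males, hybridised to an Affymetrix Drosophila Gene 1.0 ST array. The comparison used 3 control starved arrays, numbered 7, 8 and 9, and 3 control fed arrays, numbered 1, 2 and 3, which are 6 of the 12 arrays of the series. The other 6 came from dSTINGΔ males, labelled dSTINGknock, which carry a deletion made by excision of a P-element in the fly homolog of the innate immune gene STING and were starved or fed in the same way. The members were chosen by sample label alone, and values are log2 expression from robust multi-array averaging (RMA), in which 1 unit is a fold of 2.

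A fed fly stores triglyceride and glycogen in the fat body, an organ that does the work of liver and adipose tissue, and secretes yolk, storage and satiety proteins from it. When food is withheld, insulin-like peptide release from the brain falls, the transcription factor FOXO becomes active, and lipases such as brummer release fatty acids from lipid droplets for oxidation in the fat body, oenocytes and muscle. The midgut makes digestive enzymes in proportion to diet, and in males the accessory glands make seminal fluid proteins at a high rate. These are the organs and pathways by which the lists below are ordered.

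The median of an array ran between 5.82 and 5.88 over the 12 arrays. The root mean square deviation of an array from its group mean was 0.12 to 0.16 in control starved flies and 0.15 to 0.21 in control fed flies. dSTING itself (CG1667) stood at 5.39, 5.24 and 5.49 in control starved and 5.44, 6.28 and 5.82 in control fed arrays, and at 1.98 to 2.57 in the 6 dSTINGΔ arrays. The testis gene betaTub85D stood at 9.80 to 9.92 in starved and 9.48 to 9.63 in fed flies. The yolk protein gene Yp1, made by females, stood at 3.33 to 3.47 in starved and 3.34 to 3.86 in fed flies, near the low end of a table that runs between 1.11 and 12.2. Nothing in the labels says that the 3 samples of a group came from separate cultures, so the p-values measure the spread between these samples.

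Starved control flies differed from fed control flies in 1522 genes by limma at an adjusted p under 0.05. Of the 13554 genes, 770 (5.68%) were higher and 752 (5.55%) were lower. Large changes ran mostly downward, since 21 of the called genes rose and 117 fell by more than 2-fold. The median log2 fold change over all genes was -0.0043, and the median standard error was 0.11. In the text that follows, rose, fell and called refer to this limma test, and a pair of values in brackets gives the log2 fold change, starved minus fed, and its adjusted p. The 3 starved and 3 fed arrays did not overlap in 3852 genes (28.4%), and 1494 of the 1522 called genes were among them. The count of calls rested on single arrays. It was 360 without starved array 7, 480 without fed array 3, 552 without starved array 8 and 3002 without fed array 1. With the 6 control arrays alone, 96 genes were higher and 219 lower. The count of changes over 2-fold moved less, between 87 without fed array 3 and 205 without fed array 1. Where a named gene is said below not to pass without an array, only fits that left out 1 control array are listed. Named genes could also be lost with the 6 control arrays alone, as Apoltp, AkhR and Act88F were.

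**Figure D1:**
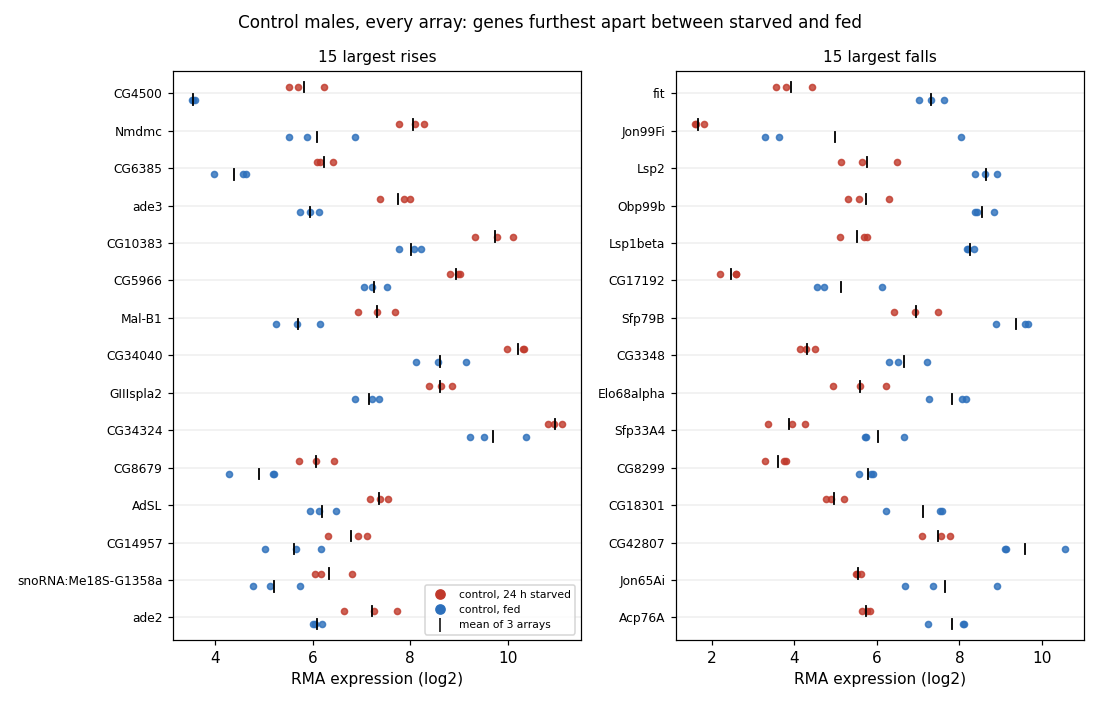
RMA expression (log2, horizontal axis) of the 15 genes with the largest rise and the 15 with the largest fall among called genes whose arrays did not overlap, in each of the 3 starved (red, upper) and 3 fed (blue, lower) control arrays, with the mean of each group as a black tick. The starved and fed points are separate in every row, and the widest spread within a group is that of Jon99Fi in fed flies, where array 3 stands at 8.03.

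The largest rise belonged to CG4500, now named hll, an enzyme that activates long-chain fatty acids by joining them to coenzyme A. It stood at 6.22, 5.71 and 5.51 in starved flies, against 3.52, 3.58 and 3.54 in fed flies (log2 fold change 2.27, standard error 0.18, adjusted p = 5.27e-05). Enzymes of one-carbon and purine metabolism made up several of the next. Nmdmc, a mitochondrial enzyme that oxidises methylene-tetrahydrofolate, stood at 8.29, 7.77 and 8.10 in starved flies, against 6.86, 5.87 and 5.52 in fed flies (log2 fold change 1.97, standard error 0.30, adjusted p = 0.00327). CG6385, the sarcosine dehydrogenase Sardh, stood at 6.43, 6.16 and 6.09 in starved flies, against 4.58, 4.63 and 3.97 in fed flies (log2 fold change 1.83, standard error 0.17, adjusted p = 0.000147). Fed array 1 was the highest of the fed arrays for Nmdmc, and still lay below every starved array. The purine synthesis genes ade3 (1.81, adjusted p = 6.35e-05), AdSL (1.18, adjusted p = 0.00125) and ade2 (1.13, adjusted p = 0.00944) rose by 1.13 to 1.81 on the log2 scale. The wider KEGG purine pathway of 111 genes had 13 rises (11.7%) and 7 falls (6.31%), against 5.68% and 5.55% over all genes. Its median log2 fold change was -0.006, and without starved array 7 it had 3 rises. ade2 stood at 7.73, 6.64 and 7.25 in starved flies, against 6.04, 6.01 and 6.20 in fed flies, so its fed arrays were tightly grouped and its starved arrays spread over more than 1 unit. Enzymes that act on lipids or sugars were also among the 15. The lipase gene CG5966 stood at 8.98, 8.82 and 9.02 in starved flies, against 7.22, 7.06 and 7.52 in fed flies (log2 fold change 1.67, standard error 0.17, adjusted p = 0.000287). GIIIspla2, a secreted phospholipase A2, rose by 1.47, and the maltase gene Mal-B1 by 1.62. Also named were CG10383 (1.71), CG34040 (1.60), CG34324 (1.26), CG8679 (1.18), CG14957 (1.16) and the RNA-guiding snoRNA:Me18S-G1358a (1.13), each as a log2 fold change. CG14957 did not pass without starved array 7 (adjusted p up to 0.0644). CG8679 and snoRNA:Me18S-G1358a did not pass without fed array 3 or starved array 7 (adjusted p up to 0.0732). ade2 did not pass with the 6 control arrays alone (adjusted p = 0.0524).

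The largest fall was that of fit, a satiety peptide of the fat body that is made after a protein meal. It stood at 3.79, 3.55 and 4.44 in starved flies, against 7.01, 7.62 and 7.32 in fed flies (log2 fold change -3.39, standard error 0.27, adjusted p = 5.27e-05). The larval storage protein genes, which adult fat body also expresses, fell with it. Lsp2 stood at 5.13, 5.65 and 6.48 in starved flies, against 8.62, 8.92 and 8.39 in fed flies (log2 fold change -2.89, standard error 0.32, adjusted p = 0.000417), and Lsp1beta at 5.10, 5.69 and 5.76 in starved flies, against 8.36, 8.22 and 8.18 in fed flies (log2 fold change -2.73, standard error 0.20, adjusted p = 5.27e-05). The odorant binding protein gene Obp99b, listed here with the secreted fat body proteins, stood at 5.57, 6.30 and 5.31 in starved flies, against 8.38, 8.43 and 8.84 in fed flies (log2 fold change -2.82, standard error 0.27, adjusted p = 0.00015). In each of these genes the lowest fed array lay more than 1 unit above the highest starved array. Lipase and serine protease genes came next. The lipase genes CG17192 (-2.67, adjusted p = 0.00363) and CG18301 (-2.15, adjusted p = 0.00251), and the proteases Jon65Ai (-2.10, adjusted p = 0.00854) and CG8299 (-2.17, adjusted p = 0.000696), fell by more than 2 units. Jon99Fi, a protease of the midgut, stood at 1.59, 1.83 and 1.62 in starved flies, against 3.28, 3.64 and 8.03 in fed flies (log2 fold change -3.30, standard error 0.90, adjusted p = 0.0355), so fed array 3 lay far above the other fed arrays. Its starved arrays lay below the 1.98 to 2.57 of the deleted dSTING in dSTINGΔ males, so the size of this fall, and its place among the largest, is not well measured. The mean of CG17192 in starved flies, 2.46, lay within that range. Jon99Fi has a near-identical copy, Jon99Fii, whose RNA the probes may not tell apart. Male reproductive proteins also fell, with Sfp79B (-2.44, adjusted p = 0.029), Sfp33A4 (-2.17, adjusted p = 0.00229) and Acp76A (-2.07, adjusted p = 0.00125). The remaining genes were the elongase Elo68alpha (-2.24, adjusted p = 0.00193), CG3348 (-2.36, adjusted p = 6.47e-05) and CG42807 (-2.12, adjusted p = 0.0105). CG42807 did not pass without starved array 7 (adjusted p up to 0.0543). Jon99Fi did not pass without starved array 7, starved array 8 or starved array 9 (adjusted p up to 0.112). Sfp79B did not pass without fed array 3, starved array 7 or starved array 8 (adjusted p up to 0.116).

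**Figure D2:**
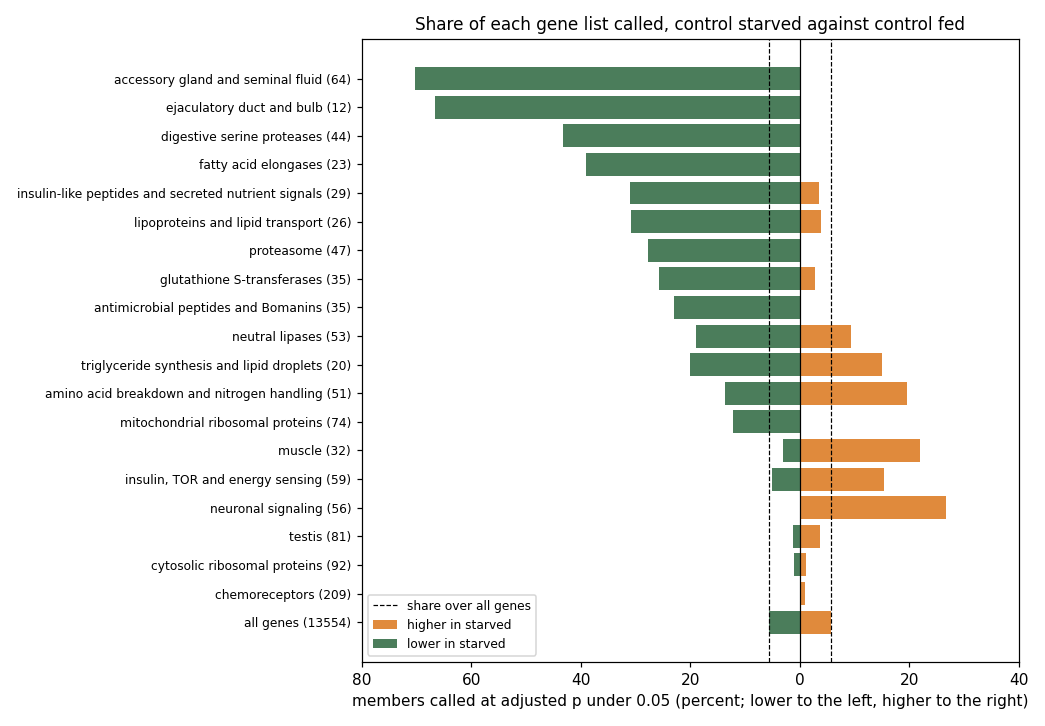
Percent of the measured members of 19 gene lists and of all genes that were called higher (orange, right) or lower (green, left) in starved than in fed control flies, with the number of members in brackets. Dashed lines mark the shares over all genes, 5.68% higher and 5.55% lower, and the seminal fluid list reaches 70.3% lower while the neuronal list reaches 26.8% higher.

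Lipid genes moved in both directions. Among 53 neutral lipases, 5 (9.43%) rose and 10 (18.9%) fell, against 5.68% and 5.55% over all genes, and 6 fell without starved array 7. Brummer (bmm), the lipase of fat body lipid droplets, stood at 10.04, 9.75 and 9.96 in starved flies, against 8.79, 8.89 and 8.83 in fed flies (log2 fold change 1.08, standard error 0.13, adjusted p = 0.000914). Lip3 rose by 0.82 at a low level, 2.82 to 2.94 in starved and 1.99 to 2.18 in fed flies, the fed values being within the range of the deleted dSTING. The gut lipase magro (mag) fell, with 8.33, 8.71 and 8.16 in starved flies, against 9.47, 9.21 and 9.52 in fed flies (log2 fold change -1.0, standard error 0.15, adjusted p = 0.00292), as did CG18258 (-1.43, adjusted p = 0.000273). The hormone-sensitive lipase gene Hsl was not called (0.20, adjusted p = 0.129). The list of triglyceride synthesis and lipid droplets had 3 rises (15%) and 4 falls (20%) of 20 genes, and 2 falls without starved array 7. The genes that fell were the droplet coat protein Lsd-1 (-1.10, adjusted p = 0.0126), the droplet protein Jabba (-0.98, adjusted p = 0.00388), the acyltransferase CG1946 (-1.43, adjusted p = 0.00251) and Seipin, which acts in droplet formation (-0.44). The genes that rose were Lpin, the phosphatidate phosphatase Lipin (0.69, adjusted p = 0.00435), mino, a glycerol-phosphate acyltransferase (0.55, adjusted p = 0.00813), and Cct1, of phosphatidylcholine synthesis (0.68, adjusted p = 0.0124). The second droplet coat gene, Lsd-2, had a log2 fold change of 0.31 and was not called (adjusted p = 0.195). Lsd-1 did not pass without starved array 7 (adjusted p up to 0.0526). Cct1 did not pass without fed array 3 or starved array 7 (adjusted p up to 0.0634).

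None of the 16 genes of fatty acid synthesis was called by limma, and at an unadjusted p under 0.05, 2 were higher and 2 lower. FASN1 (CG3523), the fatty acid synthase, stood at 10.15, 10.05 and 10.13 in starved flies, against 10.16, 10.02 and 9.97 in fed flies, and ACC, acetyl-CoA carboxylase, at 9.49, 9.42 and 9.62 in starved flies, against 9.22, 9.31 and 9.29 in fed flies. Their log2 fold changes were 0.06, adjusted p = 0.723, and 0.24, adjusted p = 0.13. The elongases, which lengthen fatty acids for membranes, hydrocarbons and pheromones, ran downward instead. Of 23, 0 were higher and 9 (39.1%) lower, against 5.68% and 5.55% over all genes, with a median of -0.33. CG6660 stood at 7.09, 7.40 and 6.96 in starved flies, against 8.19, 7.89 and 8.27 in fed flies (log2 fold change -0.97, standard error 0.12, adjusted p = 0.00125), and CG16904 fell by 0.63 in starved flies, with 10.26, 10.13 and 10.22 in starved flies, against 10.83, 10.71 and 10.96 in fed flies. The number of elongases called lower ran between 5, without fed array 3, and 11, when 1 array was left out.

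Genes of fatty acid activation and beta-oxidation had 3 rises (6.82%) and 5 falls (11.4%) among 44, against 5.68% and 5.55% over all genes. The share of rises lay near that over all genes. Beside CG4500, the rises were pudgy (pdgy), another acyl-CoA synthetase (0.50, adjusted p = 0.00679), and CG3902, an acyl-CoA dehydrogenase (0.47, adjusted p = 0.0151). The carnitine palmitoyltransferase gene withered (whd), which admits fatty acids to mitochondria, was not called (0.15, adjusted p = 0.433), nor was the trifunctional enzyme gene Mtpalpha (-0.03, adjusted p = 0.924). Without fed array 3, 0 of the 44 were called lower. No member of the 5 ketone body genes was called, and none had an unadjusted p under 0.05. Of 26 genes of lipoproteins and lipid transport, 1 (3.85%) rose and 8 (30.8%) fell. The falls included the lipophorin gene Rfabg, now apolpp, which encodes the main lipid carrier of hemolymph, with 9.89, 10.24 and 10.35 in starved flies, against 10.74, 10.71 and 10.81 in fed flies (log2 fold change -0.59, standard error 0.11, adjusted p = 0.00839). They also included Npc2b (-0.60, adjusted p = 0.00549) and Npc2d (-1.21, adjusted p = 0.0112), of the Niemann-Pick family of sterol carriers, and Npc1b (-0.94, adjusted p = 0.0253), needed for sterol uptake in the midgut. The count of falls in this list ran between 2, without fed array 3, and 11. Npc2d did not pass without fed array 3 (adjusted p up to 0.0516). CG3902 did not pass without fed array 3, starved array 7 or starved array 8 (adjusted p up to 0.0644). Npc1b did not pass without fed array 2, fed array 3, starved array 7, starved array 8 or starved array 9 (adjusted p up to 0.103).

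**Figure D3:**
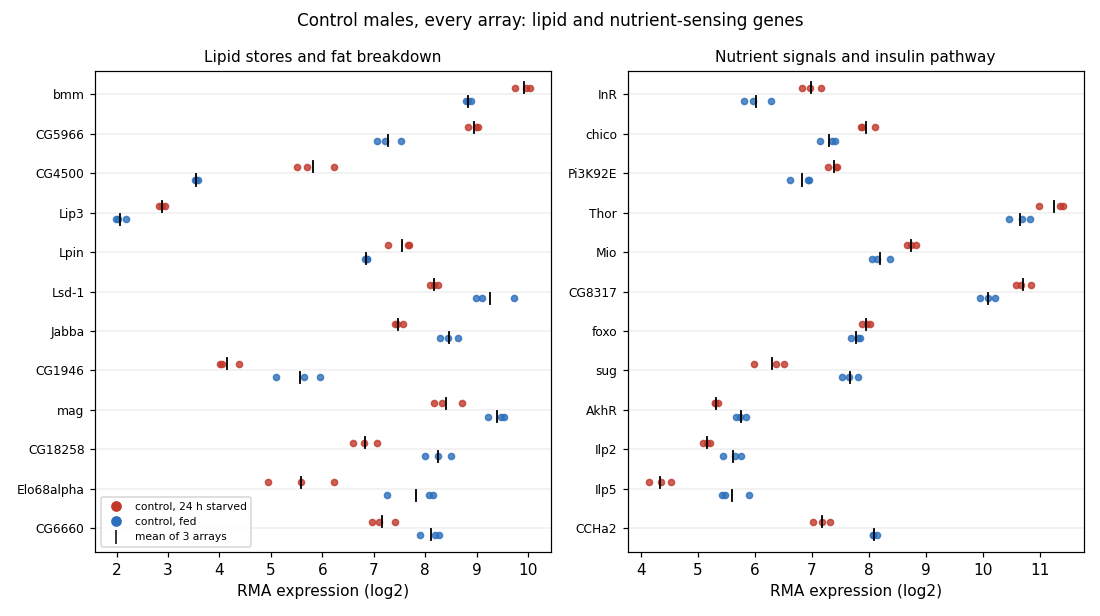
RMA expression (log2, horizontal axis) of 12 lipid genes (left) and 12 nutrient-sensing genes (right) in each of the 3 starved (red, upper) and 3 fed (blue, lower) control arrays, with group means as black ticks. bmm, CG5966 and CG4500 lie higher and Lsd-1, Jabba and mag lower in every starved array than in any fed array, and InR, chico and Thor lie higher while sug, Ilp5 and CCHa2 lie lower.

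Secreted nutrient signals fell more often than they rose, with 1 higher and 9 lower (31%) of 29, against 5.68% and 5.55% over all genes. Of the falls, 4 were called without fed array 3, and likewise 4 with the 6 control arrays alone. Of the insulin-like peptides made by brain neurosecretory cells, Ilp5 stood at 4.53, 4.35 and 4.13 in starved flies, against 5.42, 5.47 and 5.90 in fed flies (log2 fold change -1.26, standard error 0.15, adjusted p = 0.000696), and Ilp2 at 5.16, 5.21 and 5.09 in starved flies, against 5.76, 5.44 and 5.65 in fed flies (log2 fold change -0.46, standard error 0.11, adjusted p = 0.018). Ilp3 (-0.26, adjusted p = 0.248) was not called, nor was Ilp6 of the fat body (0.04, adjusted p = 0.902). The fat body peptide CCHa2, which promotes insulin-like peptide release, stood at 7.17, 7.32 and 7.01 in starved flies, against 8.14, 8.07 and 8.07 in fed flies (log2 fold change -0.93, standard error 0.12, adjusted p = 0.00138). Gbp, now Gbp1, a growth-blocking peptide of the fat body, fell by 0.86 and CG17244, now Gbp3, by 0.54. The 1 rise was that of CG8317, the decretin limostatin, which lowers insulin output, with 10.85, 10.59 and 10.67 in starved flies, against 10.10, 9.96 and 10.22 in fed flies (log2 fold change 0.61, standard error 0.11, adjusted p = 0.00729). Ilp2 did not pass without fed array 3 or starved array 7 (adjusted p up to 0.0663). CG17244 did not pass without fed array 3, starved array 7 or starved array 8 (adjusted p up to 0.0789).

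On the receiving side, 9 of 59 genes (15.3%) of insulin, TOR and energy sensing rose and 3 (5.08%) fell, against 5.68% and 5.55% over all genes. The insulin receptor gene InR stood at 7.16, 6.82 and 6.97 in starved flies, against 5.96, 6.29 and 5.80 in fed flies (log2 fold change 0.96, standard error 0.14, adjusted p = 0.0023). The receptor substrate chico (0.65, adjusted p = 0.00632) and the lipid kinase Pi3K92E (0.55, adjusted p = 0.00958) rose as well. Thor, the translation repressor 4E-BP and a known target of FOXO, stood at 11.35, 10.99 and 11.40 in starved flies, against 10.47, 10.84 and 10.68 in fed flies (log2 fold change 0.59, standard error 0.12, adjusted p = 0.0115), where starved array 8 lay nearest to the fed arrays. foxo itself had 0.18, adjusted p = 0.169. The sugar sensor Mio, now Mondo, rose (0.55, adjusted p = 0.00651), while sugarbabe (sug), a transcription factor induced by dietary sugar, stood at 5.98, 6.37 and 6.51 in starved flies, against 7.65, 7.80 and 7.53 in fed flies (log2 fold change -1.37, standard error 0.15, adjusted p = 0.000515). AkhR, the receptor of the fat-mobilising adipokinetic hormone, fell (-0.43, adjusted p = 0.0241). The count of rises in this list ran between 3, without starved array 7, and 20. Pi3K92E and Thor did not pass without starved array 7 (adjusted p up to 0.0588). AkhR did not pass without fed array 3, starved array 7 or starved array 8 (adjusted p up to 0.0869).

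Among autophagy and lysosome genes the shares called lay near those over all genes, 5.68% higher and 5.55% lower. Of 29 autophagy genes (6.9% higher), EDTP, a phosphoinositide phosphatase (0.46, adjusted p = 0.0175), and Atg18a (0.54, adjusted p = 0.0361) rose and none fell, while the kinase gene Atg1 (0.24, adjusted p = 0.246) and Atg8a (0.05, adjusted p = 0.729) were not called. Lysosomal hydrolases had 0 rises and 2 falls of 31 (6.45%), the cathepsins cathD (-0.49, adjusted p = 0.0237) and CG4847 (-0.55, adjusted p = 0.0339). Subunits of the vacuolar proton pump had 3 rises (9.09%) and 1 fall of 33. Without fed array 3, the rises of the autophagy and proton pump lists and the falls of the hydrolases each numbered 0. EDTP did not pass without fed array 3 or starved array 7 (adjusted p up to 0.061). cathD did not pass without fed array 3, starved array 7 or starved array 8 (adjusted p up to 0.102). Atg18a did not pass without fed array 2, fed array 3, starved array 7 or starved array 8 (adjusted p up to 0.15). CG4847 did not pass without fed array 3, starved array 7, starved array 8 or starved array 9 (adjusted p up to 0.134).

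The lists of glycolysis, of gluconeogenesis, glycogen and trehalose, and of amylases and maltases each had calls in 1 direction only, from 1 or 2 genes. In that direction the share lay slightly above that over all genes, 5.68% higher or 5.55% lower. Of 27 glycolysis genes 2 (7.41%) rose, Pfrx, which makes the activator of phosphofructokinase (0.37, adjusted p = 0.0202), and Pdk, the kinase that turns off pyruvate dehydrogenase (0.37, adjusted p = 0.0236). Of 27 genes of gluconeogenesis, glycogen and trehalose 2 (7.41%) fell and none rose, and 0 fell without fed array 3. Pepck, now Pepck1, the entry enzyme of gluconeogenesis, had 0.44, adjusted p = 0.0924, glycogen phosphorylase GlyP -0.11, adjusted p = 0.489 and trehalose synthase Tps1 -0.11, adjusted p = 0.558. Amylases and maltases had a median of 0.29 with 12 of 14 above 0, but Mal-B1 alone (7.14%) was called. It stood at 7.70, 7.31 and 6.93 in starved flies, against 5.25, 6.16 and 5.69 in fed flies. The tricarboxylic acid cycle had 1 rise of 24 (4.17%) and oxidative phosphorylation 1 fall of 24 (4.17%), both below the shares over all genes. Pfrx did not pass without starved array 7 or starved array 8 (adjusted p up to 0.0875). Pdk did not pass without fed array 2, fed array 3, starved array 7 or starved array 9 (adjusted p up to 0.0936).

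Amino acid breakdown and nitrogen handling had the highest share of rises among the metabolic lists shown in the plot of list shares, 10 of 51 (19.6%). It also had 7 falls (13.7%), of which 0 held without starved array 7. Over all genes the shares were 5.68% higher and 5.55% lower. Sardh had the largest. The glutamine synthetase Gs1 stood at 8.34, 8.34 and 8.42 in starved flies, against 7.79, 7.80 and 7.98 in fed flies (log2 fold change 0.51, standard error 0.08, adjusted p = 0.00374), and CG9674, a glutamate synthase, at 7.98, 7.87 and 8.08 in starved flies, against 7.25, 7.52 and 7.27 in fed flies (log2 fold change 0.63, standard error 0.10, adjusted p = 0.00388). The tyrosine breakdown enzymes CG11796 or Hpd (0.86, adjusted p = 0.00944) and hgo, homogentisate dioxygenase (0.64, adjusted p = 0.0111) rose. Glutamate dehydrogenase Gdh rose by 0.50. Among the falls were the urate oxidase Uro, an enzyme of the Malpighian tubule, with 7.22, 7.96 and 8.0 in starved flies, against 8.81, 8.77 and 8.37 in fed flies (log2 fold change -0.92, standard error 0.23, adjusted p = 0.0264), and black (b), which decarboxylates aspartate (-0.49, adjusted p = 0.0123). The number of rises ran between 5, without starved array 7, and 13. b did not pass without starved array 7 (adjusted p up to 0.0597). Uro did not pass without fed array 2 or starved array 7 (adjusted p up to 0.109). Gdh did not pass without fed array 3, starved array 7 or starved array 8 (adjusted p up to 0.0599). With the 6 control arrays alone, 3 were higher and 1 lower.

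The shares called differed between lists of protein synthesis and turnover. Of 92 cytosolic ribosomal proteins 1 rose and 1 fell (1.09% each, against 5.68% and 5.55% over all genes). Of the 92, 68 lay below 0, with a median of -0.05. The number called lower ran between 0, without fed array 3, and 12, when 1 array was left out. Of 49 ribosome biogenesis genes 4 rose (1 without starved array 7), led by the GTPase gene Non1, with 9.80, 9.75 and 9.85 in starved flies, against 9.10, 9.13 and 9.22 in fed flies (log2 fold change 0.65, standard error 0.08, adjusted p = 0.000864). No aminoacyl-tRNA synthetase of 22 was called, with 2 higher and 0 lower at an unadjusted p under 0.05. The proteasome ran downward, with 0 higher and 13 lower of 47 (27.7%) and a median of -0.15. The lid subunit Rpn12 stood at 7.78, 8.03 and 8.0 in starved flies, against 8.56, 8.49 and 8.59 in fed flies (log2 fold change -0.61, standard error 0.09, adjusted p = 0.00275), the core subunit Prosalpha4 at 7.42, 7.50 and 7.64 in starved flies, against 8.01, 8.03 and 8.32 in fed flies (log2 fold change -0.60, standard error 0.10, adjusted p = 0.00409), and the base ATPase Rpt4 at 8.07, 7.94 and 8.05 in starved flies, against 8.46, 8.38 and 8.49 in fed flies (log2 fold change -0.42, standard error 0.08, adjusted p = 0.00697). The count of proteasome falls ran between 4, without starved array 7, and 17, and was 2 with the 6 control arrays alone. Mitochondrial ribosomal proteins had 0 rises and 9 falls (12.2%) of 74 with a median of -0.24, and 69 of the 74 lay below 0. The number called lower ran between 0, without fed array 3, and 34.

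Falls outnumbered rises in several KEGG pathways of the secretory route, which the deposited table assigns to genes. Protein export had 0 rises and 6 falls of 21 (28.6% lower), and N-glycan biosynthesis 1 and 7 of 36 (19.4% lower). Protein processing in the endoplasmic reticulum had 2 and 10 of 113 (8.85% lower, against 5.55% over all genes). Without starved array 7 the falls numbered 1, 1 and 2 in that order, and with the 6 control arrays alone 1 in each. The named falls were the signal peptidase subunits Spase22-23 (-0.68, adjusted p = 0.00417) and Spase25 (-0.60, adjusted p = 0.0101), the translocon subunit Sec61gamma (-0.48, adjusted p = 0.0205), windbeutel (wbl), a chaperone of the endoplasmic reticulum (-1.08, adjusted p = 0.00292), Tapdelta (-0.42, adjusted p = 0.00585), and the oligosaccharyltransferase subunit Ost48 (-0.38, adjusted p = 0.015). Ubiquitin mediated proteolysis had 7 rises (7.78%, against 5.68% over all genes) and 0 falls of 90. At an unadjusted p under 0.05 in limma, 5 were lower, and 0 rises were called without fed array 3. Spase25 and Ost48 did not pass without starved array 7 (adjusted p up to 0.0735). Sec61gamma did not pass without fed array 2, fed array 3, starved array 7 or starved array 8 (adjusted p up to 0.0906).

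Digestive serine proteases ran downward. All 44 members had a log2 fold change below 0, and 19 (43.2%) were called lower and 0 higher, against 5.55% and 5.68% over all genes. The median was -0.68, and the mean log2 level of the list was 6.01 to 6.36 over starved arrays and 6.75 to 7.31 over fed arrays, where fed array 3 was the highest. CG11912 stood at 4.49, 4.71 and 4.77 in starved flies, against 5.82, 5.88 and 6.49 in fed flies (log2 fold change -1.41, standard error 0.18, adjusted p = 0.00118), and Jon65Aiii at 9.69, 10.09 and 10.24 in starved flies, against 10.71, 11.05 and 10.76 in fed flies (log2 fold change -0.84, standard error 0.14, adjusted p = 0.006). The trypsins alphaTry (-0.12, adjusted p = 0.611) and betaTry (-0.13, adjusted p = 0.553), which have close copies, were not called. The number called lower ran between 7, without starved array 7, and 23, and was 8 with the 6 control arrays alone. Of 53 other gut peptidases and absorption genes 6 (11.3%) fell, and 3 without fed array 3, among them the carboxypeptidase CG12374 (-1.62, adjusted p = 0.0094). The 1 rise (1.89%) was the amino acid transporter gene CG1139 (0.85, adjusted p = 0.00823). In whole bodies, fewer cells of a type and less RNA per cell cannot be told apart, here and in every tissue list below.

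**Figure D4:**
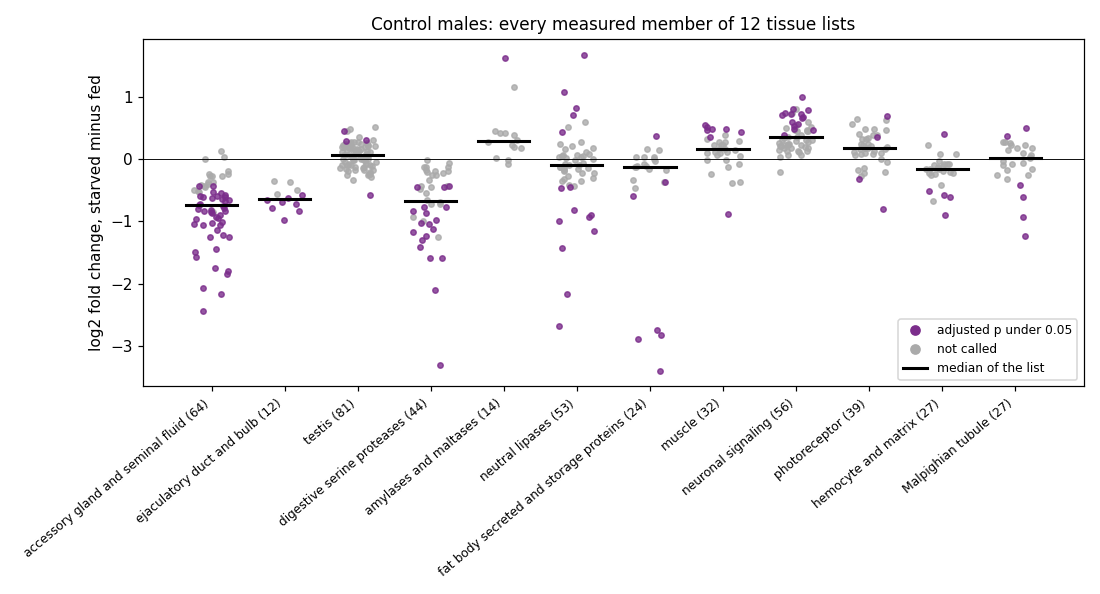
Log2 fold change, starved minus fed control flies (vertical axis), of every measured member of 12 tissue lists, with called genes in purple, others in grey, the list median as a black line and the number of members in brackets. All 44 digestive proteases and all 12 duct and bulb genes lie below 0, while 55 of 56 neuronal genes lie above it.

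Male reproductive glands gave the largest share of calls among the 52 lists. Of 64 accessory gland and seminal fluid genes, 45 (70.3%) were lower and 0 higher, against 5.55% and 5.68% over all genes. The median was -0.73, and 62 members lay below 0. The mean log2 level of the list was 7.29 to 7.52 in starved and 8.04 to 8.54 in fed arrays, with no overlap. Sfp24Bc stood at 6.10, 6.18 and 5.92 in starved flies, against 7.80, 7.68 and 8.26 in fed flies (log2 fold change -1.85, standard error 0.15, adjusted p = 5.27e-05), and Acp24A4 at 8.80, 8.90 and 9.06 in starved flies, against 10.57, 10.04 and 10.64 in fed flies (log2 fold change -1.50, standard error 0.16, adjusted p = 0.000287). Sex peptide (SP), which alters the behaviour of mated females, fell by less, with 8.98, 9.18 and 9.53 in starved flies, against 9.80, 9.90 and 10.20 in fed flies (log2 fold change -0.74, standard error 0.17, adjusted p = 0.0192). Acp36DE (-0.52, adjusted p = 0.0877) and Acp26Aa (-0.40, adjusted p = 0.164), seminal proteins needed for sperm storage and ovulation, were below 0 and not called. The count of falls ran between 14, without starved array 7, and 46, and was 24 with the 6 control arrays alone. In the ejaculatory duct and bulb 8 of 12 genes (66.7%) fell, with a median of -0.64, and 5 fell without starved array 7. Peb, a protein of the mating plug, stood at 10.11, 10.16 and 10.07 in starved flies, against 11.25, 10.74 and 11.26 in fed flies (log2 fold change -0.97, standard error 0.15, adjusted p = 0.00292), and Est-6, a carboxylesterase of the duct, at 8.99, 9.15 and 9.23 in starved flies, against 9.69, 9.67 and 10.08 in fed flies (log2 fold change -0.69, standard error 0.12, adjusted p = 0.00664). Testis genes gave few calls. Of 81, 3 (3.7%) rose and 1 (1.23%) fell, both below the shares over all genes, and 1 rose without fed array 2. The median was 0.06, and the mean level was 7.49 to 7.57 in starved and 7.36 to 7.55 in fed arrays. SP did not pass without fed array 3, starved array 7 or starved array 8 (adjusted p up to 0.0882).

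The fat body list had 1 rise (4.17%) and 6 falls (25%) of 24, against 5.68% and 5.55% over all genes. Of the falls, 4 were the storage and satiety genes given above. Apoltp, a lipid transfer particle protein, rose (0.37, adjusted p = 0.0266). The hemocyte and matrix list had 1 rise (3.7%) and 4 falls (14.8%) of 27, and 0 falls without starved array 7. The crystal cell enzyme PPO1 stood at 4.79, 5.14 and 4.92 in starved flies, against 5.52, 5.79 and 6.25 in fed flies (log2 fold change -0.90, standard error 0.17, adjusted p = 0.00957). The clotting protein Hml had -0.61, adjusted p = 0.0416. The plasmatocyte receptor NimC1 was not called (-0.41, adjusted p = 0.168). In the Malpighian tubule list, 2 of 27 (7.41%) rose and 4 (14.8%) fell, with 0 rises without fed array 2 and 1 fall without starved array 7. The falls were led by CG7720, with 5.90, 5.64 and 5.71 in starved flies, against 7.02, 7.17 and 6.79 in fed flies (log2 fold change -1.24, standard error 0.11, adjusted p = 9.95e-05). Of 12 oenocyte genes 2 (16.7%) fell, and 0 without fed array 3. Cyp4g1, the hydrocarbon-forming enzyme, stood at 12.16 to 12.24 in starved and 12.16 to 12.19 in fed flies, at the upper end of the scale. None of the 17 female reproductive genes was called, and none had an unadjusted p under 0.05. PPO1 did not pass without starved array 7 (adjusted p up to 0.0517). Apoltp did not pass without fed array 2, fed array 3, starved array 7 or starved array 9 (adjusted p up to 0.0891). Hml did not pass without fed array 3, starved array 7, starved array 8 or starved array 9 (adjusted p up to 0.16).

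Neuronal genes ran upward. Of 56, 15 (26.8%) were higher and 0 lower, against 5.68% and 5.55% over all genes, with a median of 0.35. The calcium channel gene cac stood at 7.21, 7.32 and 6.82 in starved flies, against 6.41, 6.36 and 5.61 in fed flies (log2 fold change 0.99, standard error 0.19, adjusted p = 0.00957), the adhesion gene CadN at 5.64, 5.96 and 5.65 in starved flies, against 5.03, 5.30 and 4.92 in fed flies (log2 fold change 0.67, standard error 0.13, adjusted p = 0.01), and the sodium channel gene para at 6.76, 6.90 and 6.47 in starved flies, against 6.14, 6.26 and 5.54 in fed flies (log2 fold change 0.73, standard error 0.19, adjusted p = 0.0293). Their lowest array was fed array 3 in every case, and the pan-neuronal markers elav (0.25, adjusted p = 0.319), brp (0.39, adjusted p = 0.115) and nSyb (0.45, adjusted p = 0.0932) were not called. The mean level of the list was 6.46, 6.49 and 6.21 in starved arrays 7, 8 and 9, against 6.19, 6.07 and 5.72 in fed arrays 1, 2 and 3. The count of rises ran between 3, without fed array 3, and 32, and it was 0 with the 6 control arrays alone. In dSTINGΔ males 1 of the 56 rose on starvation, and the median was 0.04, but the test of the difference was called for 0 of the 56 genes. The muscle list had 7 rises (21.9%) and 1 fall (3.12%) of 32. Among the rises were the giant sarcomere proteins sls (0.54, adjusted p = 0.00651), bt (0.44, adjusted p = 0.0237) and Msp300 (0.49, adjusted p = 0.0214), while the flight muscle actin Act88F fell (-0.88, adjusted p = 0.0139). The count of rises in the muscle list was 1 without fed array 3. Photoreceptor genes had 2 rises and 2 falls of 39 (5.13% each), below the 5.68% and 5.55% over all genes. There was 1 rise without starved array 7 and 0 falls without fed array 2. The main rhodopsin gene ninaE was not called (0.08, adjusted p = 0.738). Act88F did not pass without starved array 7 (adjusted p up to 0.0669). Msp300 did not pass without fed array 3 or starved array 8 (adjusted p up to 0.0878). para did not pass without fed array 3, starved array 7 or starved array 8 (adjusted p up to 0.109). bt did not pass without fed array 2, fed array 3, starved array 7 or starved array 8 (adjusted p up to 0.0924).

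Of 46 neuropeptide genes 1 (2.17%) rose and 5 (10.9%) fell, against 5.68% and 5.55% over all genes, and 3 fell without fed array 3. Beside the insulin-like peptides and CCHa2, the falls were SIFa (-0.71, adjusted p = 0.0138) and NPF (-0.49, adjusted p = 0.0397), both of which act in feeding behaviour, and the rise was Nplp1 (0.40, adjusted p = 0.0247). No gene of the clock and takeout list was called, although 2 were higher and 2 lower at an unadjusted p under 0.05 in limma. Chemoreceptors had 2 rises (0.957%) and 0 falls of 209 (12 lower at an unadjusted p under 0.05). The mean level of the list was 2.52 to 2.58 in starved and 2.53 to 2.63 in fed arrays. That is near the 1.98 to 2.57 of the deleted dSTING, so the low share called says little. The rises were the gustatory receptor Gr98a, with 3.68, 3.76 and 3.76 in starved flies, against 2.91, 2.74 and 2.66 in fed flies (log2 fold change 0.96, standard error 0.13, adjusted p = 0.00144), and Orco, the shared odorant co-receptor (0.55, adjusted p = 0.0168). The fed values of Gr98a lay just above that range. Odorant binding proteins fell more often, 10 of 47 (21.3%) against 1 rise (2.13%), but 2 fell without starved array 8 or with the 6 control arrays alone. Small nucleolar RNAs had 5 rises (2.26%) and 4 falls (1.81%) of 221, both below the shares over all genes, and 1 rise without fed array 3. Of the 221, 181 lay below 0 with a median of -0.19, and the number called lower ran between 2, without fed array 2, and 71. SIFa did not pass without starved array 8 (adjusted p up to 0.0585). Orco did not pass without fed array 3 or starved array 8 (adjusted p up to 0.0719). Nplp1 did not pass without fed array 2, fed array 3, starved array 7 or starved array 8 (adjusted p up to 0.1). NPF did not pass without fed array 2, fed array 3, starved array 7, starved array 8 or starved array 9 (adjusted p up to 0.156).

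The stress and detoxification lists differed from each other. Glutathione S-transferases had 1 rise (2.86%) and 9 falls (25.7%) of 35, against 5.68% and 5.55% over all genes, but 0 were called lower without starved array 7. Among the falls, GstE12 stood at 9.16, 9.14 and 9.36 in starved flies, against 9.60, 9.65 and 9.91 in fed flies (log2 fold change -0.50, standard error 0.10, adjusted p = 0.0101). Cytochrome P450 genes had 2 rises and 8 falls (9.3%, against 5.55% over all genes) of 86, led by Cyp9b2 (-0.80, adjusted p = 0.00292), and 3 falls without fed array 3. UDP-glycosyltransferases had 1 rise (5.88%) and 0 falls of 17, with 2 lower at an unadjusted p under 0.05. In the heat shock and oxidative stress list 1 (2.27%) rose and 5 (11.4%) fell of 44, and 3 fell without fed array 3. The superoxide dismutase gene Sod, now Sod1, stood at 9.83, 9.89 and 9.97 in starved flies, against 10.37, 10.34 and 10.60 in fed flies (log2 fold change -0.54, standard error 0.09, adjusted p = 0.00589), the small heat shock gene Hsp22 fell (-0.88, adjusted p = 0.0123), and catalase (Cat) rose (0.28, adjusted p = 0.029). None of the 5 metallothioneins was called, and 1 had an unadjusted p under 0.05. GstE12 did not pass without starved array 7 (adjusted p up to 0.053). Cat did not pass without fed array 3, starved array 7 or starved array 8 (adjusted p up to 0.109).

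Immune effectors stood lower in starved flies. Of 35 antimicrobial peptides and Bomanins 8 (22.9%) fell and 0 rose, 34 lay below 0, and the median was -0.46. The drosomycin-like gene Drsl4 stood at 9.12, 9.16 and 9.38 in starved flies, against 10.12, 10.22 and 10.57 in fed flies (log2 fold change -1.08, standard error 0.18, adjusted p = 0.00501), and the Bomanin gene IM1, now BomS1, at 7.72, 7.32 and 7.80 in starved flies, against 8.17, 8.59 and 8.80 in fed flies (log2 fold change -0.91, standard error 0.21, adjusted p = 0.0208). Metchnikowin (Mtk), an antifungal peptide, varied between fed arrays. It stood at 3.47, 3.76 and 4.63 in starved flies, against 5.89, 8.61 and 5.50 in fed flies, so that its log2 fold change of -2.72 had a standard error of 1.17 and was not called (adjusted p = 0.146). The number called lower ran between 1, without fed array 3, and 12. Among 59 genes of recognition and signaling, 3 (5.08%) rose and 7 (11.9%) fell, against 5.68% and 5.55% over all genes. The rises were thus no more frequent than over all genes. There was 1 rise without fed array 3, and there were 3 falls without starved array 7. The Turandot stress peptides TotX (-1.54, adjusted p = 0.00402) and TotA (-1.29, adjusted p = 0.0117) and the receptor PGRP-SA (-0.74, adjusted p = 0.01) fell, while the transcription factor Relish (Rel), with 7.63, 7.50 and 7.75 in starved flies, against 7.06, 7.28 and 7.06 in fed flies, and its upstream partner Tab2 rose by 0.50 and 0.69. TotA did not pass without starved array 7 (adjusted p up to 0.0588). Rel did not pass without fed array 3 or starved array 7 (adjusted p up to 0.0639). IM1 did not pass without fed array 2, fed array 3, starved array 7 or starved array 8 (adjusted p up to 0.0912).

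The same 24 hr without food was compared between genotypes to show which control changes differed. The log2 fold changes of each genotype came from its own 6 arrays. The limma fit took the spread of each gene from all 12 arrays, so the calls in one genotype also rest on the arrays of the other. The overlaps of calls given below are therefore not overlaps of independent tests. With the 6 control arrays alone, 315 genes were called in control flies. In dSTINGΔ males 990 of all 13554 genes rose and 1290 fell. Over all genes, the log2 fold changes of the 2 genotypes had a Pearson correlation of 0.56. Of the control rises, 266 also rose in dSTINGΔ males, which is 34.5% of the 770 and 26.9% of the 990. Of the control falls, 479 fell in both, which is 63.7% of the 752 and 37.1% of the 1290. Another 6 genes were called in opposite directions. Among the 1522 genes called in control flies, 1375 had the same sign in dSTINGΔ males, and 534 of these had the larger change there. Because the 1522 were picked for their change in control flies, the comparison of sizes leans toward a larger control change. The 534 thus do not show which genotype responded more. The share with the same sign over all genes was not counted. The difference itself, control minus dSTINGΔ response, was called in 180 genes (1.33%), of which 60 were among the 1522. The count of differences was 60 without control starved array 8 and 916 without control fed array 1.

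**Figure D5:**
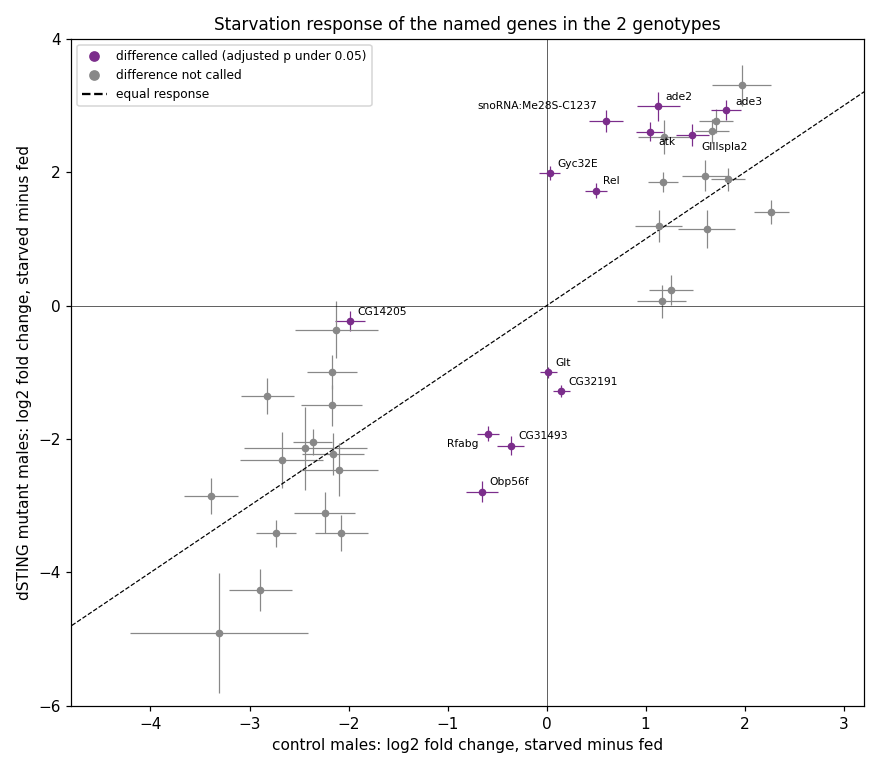
Log2 fold change, starved minus fed, in control males (horizontal axis) and dSTINGΔ males (vertical axis) of the 30 genes with the largest control changes and the 10 genes with the smallest p for the difference, with standard errors of the limma fit as bars, called differences in purple and equal response as a dashed line. ade2, ade3, atk, GIIIspla2 and Rel lie above the line, with the larger rise in dSTINGΔ males, and Gyc32E stands at 0.03 in control and 1.99 in dSTINGΔ males.

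The difference is given as control minus dSTINGΔ. Several of the leading control rises were larger in dSTINGΔ males. ade2 rose by 1.13 in control and 2.99 in dSTINGΔ males (difference -1.86, standard error 0.31, adjusted p = 0.013), and ade3 by 1.81 and 2.93 in the same order (difference -1.12, standard error 0.21, adjusted p = 0.0263). GIIIspla2 rose by 1.47 in control and 2.56 in dSTINGΔ males (difference -1.09, standard error 0.24, adjusted p = 0.046). sugarbabe had -1.37 in control and -2.72 in dSTINGΔ males (difference 1.35, standard error 0.22, adjusted p = 0.0125). Rfabg also fell by less in control flies, with -0.59 in control and -1.92 in dSTINGΔ males (difference 1.33, standard error 0.16, adjusted p = 0.00351). CG14205 went the other way. In control males it stood at 2.96, 3.02 and 3.13 in starved flies, against 4.85, 5.35 and 4.87 in fed flies, with a log2 fold change of -1.99, while dSTINGΔ males had -0.24 (difference -1.75, standard error 0.21, adjusted p = 0.00354). Gr98a, whose control fed level lay just above that of the deleted dSTING, had 0.96 in control and -0.04 in dSTINGΔ males (difference 1.0, standard error 0.18, adjusted p = 0.0203). For the storage genes and fit the difference was not called, with fit at -3.39 in control and -2.86 in dSTINGΔ males (difference -0.53, standard error 0.38, adjusted p = 0.468), and Lsp2 at -2.89 and -4.26 in that order (difference 1.37, standard error 0.45, adjusted p = 0.139). For bmm, 1.08 in control stood beside 1.74 in dSTINGΔ males (difference -0.66, standard error 0.19, adjusted p = 0.0909), and for InR 0.96 beside 1.76 (difference -0.79, standard error 0.20, adjusted p = 0.0682). In the seminal fluid list, 52 of 64 fell in dSTINGΔ males with a median of -1.15, and the difference was called for 1 gene.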

How the data were processed

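Total RNA from whole bodies of 10 males per sample was hybridised to Affymetrix Drosophila Gene 1.0 ST arrays. The authors summarised probes per Entrez gene by robust multi-array averaging, and the deposited values are log2 expression (per the labels, affy 1.48.0 in R 3.2.0). RMA normalizes the arrays to a common distribution, so levels are relative within the table. Of the 13554 genes, 224 had no symbol. The authors' own comparison columns hold fold changes and p-values and were not used. limma 3.58.1 in R 4.3.3 was fitted with 1 mean per group over all 12 arrays (8 residual and 4.50 prior degrees of freedom), with Benjamini-Hochberg adjustment over all genes, and was tested on simulated data. Named genes are the 15 largest rises and falls among called genes without overlap, the 6 members of each list with the smallest p, key members, 4 genes of each KEGG pathway of 20 or more genes, and the 5 smallest p of the genotype difference in each direction. Genes named outside this rule were chosen after their values were seen. Lists carry no set test. Members and lists were chosen with earlier results of these data known. The alternatives were other samples, weights, filters, normalizations and thresholds. Promoter motifs were not analysed here. The number of arrays limits the precision.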

Additional observations from a re-analysis of the deposited data

Results flagged for a closer look

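The limma test of the difference between the control and the dSTINGΔ starvation response was called for 30 of the named genes. Some of these were named because of their small p in this same test, so the count of 30 is partly built in. Over all 13554 genes the difference was called for 180 (1.33%). For each of the 30, the log2 fold change in control flies is followed by that in dSTINGΔ flies and by the difference, control minus dSTINGΔ. Groups of 3 arrays were too small to be searched for single outlying arrays.

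The control response lay below that of dSTINGΔ males in the genes that come next. ade2, a purine synthesis enzyme, had 1.13 in control and 2.99 in dSTINGΔ males, a difference of -1.86 (limma adjusted p = 0.013). ade3, a purine synthesis enzyme, showed 1.81 in control and 2.93 in dSTINGΔ males, a difference of -1.12 (limma adjusted p = 0.0263). Atg1, the autophagy kinase, gave 0.24 in control and 1.23 in dSTINGΔ males, a difference of -0.99 (limma adjusted p = 0.0231). Atg18b had 0.49 in control and 1.83 in dSTINGΔ males, a difference of -1.35 (limma adjusted p = 0.0125). atk showed 1.04 in control and 2.61 in dSTINGΔ males, a difference of -1.57 (limma adjusted p = 0.00354). CenG1A gave 0.62 in control and 1.4 in dSTINGΔ males, a difference of -0.78 (limma adjusted p = 0.0496). CG11077 had -0.48 in control and 0.26 in dSTINGΔ males, a difference of -0.73 (limma adjusted p = 0.0385). CG14205 showed -1.99 in control and -0.24 in dSTINGΔ males, a difference of -1.75 (limma adjusted p = 0.00354). CG7720 gave -1.24 in control and -0.47 in dSTINGΔ males, a difference of -0.77 (limma adjusted p = 0.035).

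Cpr67Fb had -0.89 in control and 1.17 in dSTINGΔ males, a difference of -2.06 (limma adjusted p = 0.00917). GIIIspla2, a phospholipase, showed 1.47 in control and 2.56 in dSTINGΔ males, a difference of -1.09 (limma adjusted p = 0.046). Gyc32E, a guanylyl cyclase, gave 0.03 in control and 1.99 in dSTINGΔ males, a difference of -1.96 (limma adjusted p = 0.000205). Lpin, the phosphatidate phosphatase Lipin, had 0.69 in control and 1.49 in dSTINGΔ males, a difference of -0.81 (limma adjusted p = 0.0321). Mal-B2, a maltase, showed 0.41 in control and 1.80 in dSTINGΔ males, a difference of -1.39 (limma adjusted p = 0.00852). Rel, the NF-kB factor Relish, gave 0.50 in control and 1.73 in dSTINGΔ males, a difference of -1.23 (limma adjusted p = 0.00361). snoRNA:Me28S-C1237 had 0.60 in control and 2.77 in dSTINGΔ males, a difference of -2.17 (limma adjusted p = 0.00243). TwdlO showed -0.51 in control and 0.27 in dSTINGΔ males, a difference of -0.78 (limma adjusted p = 0.046).

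It lay above that of dSTINGΔ males in the others. CG31233 had -0.98 in control and -3.02 in dSTINGΔ males, a difference of 2.04 (limma adjusted p = 0.00354). CG31493 showed -0.36 in control and -2.10 in dSTINGΔ males, a difference of 1.73 (limma adjusted p = 0.00291). CG32191 gave 0.15 in control and -1.28 in dSTINGΔ males, a difference of 1.43 (limma adjusted p = 0.000235). Drsl4, a drosomycin-like peptide, had -1.08 in control and -2.47 in dSTINGΔ males, a difference of 1.39 (limma adjusted p = 0.0231). Glt, the basement membrane protein glutactin, showed 0.02 in control and -1.0 in dSTINGΔ males, a difference of 1.02 (limma adjusted p = 0.00354). Gr98a, a gustatory receptor at a low level in control fed flies, gave 0.96 in control and -0.04 in dSTINGΔ males, a difference of 1.0 (limma adjusted p = 0.0203). Irk3 had -0.07 in control and -1.19 in dSTINGΔ males, a difference of 1.13 (limma adjusted p = 0.046). Nplp2 showed -0.42 in control and -1.37 in dSTINGΔ males, a difference of 0.95 (limma adjusted p = 0.0299). Obp56f gave -0.66 in control and -2.79 in dSTINGΔ males, a difference of 2.13 (limma adjusted p = 0.00243).

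OstStt3, an oligosaccharyltransferase subunit, had -0.31 in control and -0.84 in dSTINGΔ males, a difference of 0.53 (limma adjusted p = 0.0332). Pbgs showed -0.48 in control and -1.22 in dSTINGΔ males, a difference of 0.74 (limma adjusted p = 0.0408). Rfabg, the lipophorin precursor, gave -0.59 in control and -1.92 in dSTINGΔ males, a difference of 1.33 (limma adjusted p = 0.00351). sug, sugarbabe, had -1.37 in control and -2.72 in dSTINGΔ males, a difference of 1.35 (limma adjusted p = 0.0125).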

How the results depend on the processing

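The 1522 calls became 315 with the 6 control arrays alone (96 higher, 219 lower), 4528 with array quality weights and 320 at an adjusted p under 0.01. Leaving out 1 array gave 360 to 3002 calls. The 138 changes over 2-fold became 85 among genes above the median signal, 778 at a fold of 1.4, and 87 to 205 without 1 array. The 180 differences between genotypes became 2096 with array weights, 27 at an adjusted p under 0.01, and 60 to 916 without 1 array. The causes were not tested, except that a stricter threshold, fewer arrays or fewer genes tested change a count by construction. Higher calls were 50.6% of the main calls and 30.5% with the 6 control arrays.

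The values of the single sample records (rounded to fewer decimals), trended fits, median centring and repeated quantile normalization kept each of these 3 counts within 1.5 times. Replicate numbers were not shown to pair the samples, since starved and fed sample records labelled as replicates 1, 2 and 3 correlated at 0.24, -0.04 and 0.37, number by number, in their deviations from the group means. With the replicate number as a block, the sample records gave 1173 calls, 137 changes over 2-fold and 95 differences. Among the named genes, no called value changed sign under any alternative run, and the other called genes were not checked for this. For most called genes, most of these runs could not have changed a sign. The arrays did not overlap in 1494 of the 1522 called genes, and there leaving out or weighting arrays keeps the sign. The control arrays alone, trended fits and a stricter threshold leave the log2 fold change as it was. The unchanged signs therefore say little about how robust the calls are. A promoter motif search was planned and not run. Signal over background could not be measured gene by gene, since the values hold no background measure. The level of the deleted dSTING, set beside some low genes above, is only a rough mark. The deletion removes part of that gene, and the table holds lower values.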
